A study of Mus musculus with 6 samples.

Results

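The expression of 10 imprinted growth genes was examined in brown adipose tissue (BAT) of miR-22 knockout (KO) and wild-type (WT) mice: *Mest*, *Nnat*, *Peg3*, *Dlk1*, *Igf2*, *H19*, *Cdkn1c*, *Grb10*, *Plagl1* and *Sgce*. They are 10 of the 14711 genes tested, and all 16 of the array's probes whose RefSeq accession belonged to these genes were followed, of 56605 probes in all. The members were chosen with the KO and WT signals of these same arrays known, so their differences between the groups were selected on those values and are given below as a description, without a test. The 3 WT and 3 KO mice were 8 weeks old, and male according to the methods of the study. The KO mice carried a constitutive deletion of miR-22 in every tissue and were obtained from the Jackson Laboratory. The strain is not given in the sources used here, no further allele or treatment is named for either group, and the study calls the WT mice of this comparison littermate controls, without saying which mice shared a litter. Total RNA of each BAT was hybridized with 1 dye to 1 Agilent mouse gene expression array, and the 6 arrays lay on 1 slide with 1 scan time.

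Imprinted genes are transcribed mainly from the copy inherited from one parent, because DNA methylation in the germ line marked the parental copies differently. Many of them act on growth before and after birth, and as a group they are known for high expression in the embryo and a decline after birth. Genes active on the paternal copy, such as *Igf2* and *Mest*, are often linked to more growth, and genes active on the maternal copy, such as *H19*, *Cdkn1c* and *Grb10*, to less. In adipose tissue, *Dlk1* marks preadipocytes and *Mest* is known for its rise when fat depots enlarge. The parental copy given for each gene below is this background, and can differ between tissues. It was not measured here.

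The microRNA that the KO mice lack is processed from a hairpin on chromosome 11, within the noncoding gene *Mir22hg*. Its mature strands are shown because they name the deleted sequence. They are given 5′ to 3′ from RefSeq on GRCm38.p6, on the plus strand at chr11:75463772-75463793 for miR-22-3p and at chr11:75463734-75463755 for miR-22-5p, with the seed (bases 2 to 8) in capitals.
miR-22-3p: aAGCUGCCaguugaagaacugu
miR-22-5p: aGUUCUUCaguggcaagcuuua
The array had no probe matched to the mature microRNA. The single *Mir22hg* probe had scaled log2 signals of 1.20, 1.69 and 1.22 in WT mice 1, 2 and 3 and of 2.02, 2.11 and 2.23 in KO mice 1, 2 and 3. Whether that probe lies inside the deleted part is not known, so it does not check the labels.

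On the probe that represents each gene below, *Mest* and *Nnat* had larger differences than the other 8 genes, and their upstream sequences are shown for that reason. The second probe of *Mest* differed by only 0.22 in log2. That is less than the second probes of *Sgce* (0.49), *Grb10* (0.43) and *Plagl1* (0.40), and more than those of *Dlk1* (0.10) and *Igf2* (-0.04). The promoter table of RefSeq on GRCm38.p6 held 7 of the 10 genes, all but *H19*, *Cdkn1c* and *Sgce*. The 250 bases before 1 of the 3 listed starts of *Mest* (chr6:30737803-30738052, plus strand) and before the start of *Nnat* (chr2:157559828-157560077, plus strand) are printed 5′ to 3′, with each CG dinucleotide, the place of DNA methylation, in capitals.
Mest: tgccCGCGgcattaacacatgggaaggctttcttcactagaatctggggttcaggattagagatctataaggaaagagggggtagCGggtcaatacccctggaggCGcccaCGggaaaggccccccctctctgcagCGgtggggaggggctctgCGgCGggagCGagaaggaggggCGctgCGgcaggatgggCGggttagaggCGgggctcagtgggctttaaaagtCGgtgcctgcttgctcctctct
Nnat: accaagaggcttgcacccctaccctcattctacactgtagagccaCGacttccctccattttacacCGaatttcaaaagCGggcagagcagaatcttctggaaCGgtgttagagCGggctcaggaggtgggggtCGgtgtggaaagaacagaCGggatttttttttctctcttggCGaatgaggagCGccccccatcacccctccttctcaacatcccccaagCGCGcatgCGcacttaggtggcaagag
The *Mest* stretch held 14 CG dinucleotides and the *Nnat* stretch 12, counted on the strand shown. Across the 32851 promoters of the table the median was 6 in the same 250 bases, and 29.4% of them held at least 14 and 33.5% at least 12. The more distant start of *Mest* had 7. For the other genes with an entry the count ran from 1, before 1 of the 4 starts of *Igf2*, to 40, before 1 of the 2 starts of *Grb10*, a number that 1.31% of promoters reached. Methylation was not measured in these mice, and the probes could not be assigned to a start.

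The values below are log2 signals of the scanner software after background subtraction, divided by the 75th percentile of the array, so that 0 is the level of that percentile and 1 unit is a doubling. Each gene is represented by its brighter probe, and standard errors of differences come from limma's fit across all genes. Levels of different genes are not compared, because probes differ in brightness for a given amount of RNA. The 75th percentile lay between 1435 and 1984 units of intensity on the WT arrays and between 1599 and 2633 on the KO arrays. Between 55.9 and 66.5% of spots were well above background. The software marked 17.1% of the spots of WT 3 and 15.1% of those of KO 1 as outliers, against 4.87 to 6.12% on the other 4 arrays, and these spots were left out. Only the means of the cell type lists, and the correlations with the muscle list, kept them so that every mouse had a value. All 16 member probes were above background on at least 3 arrays and 14 of them on all 6, and the single marked spot among them was that of *Igf2* in WT 3. The brown adipocyte list (8 of 8 genes above background on all 6 arrays, *Ucp1* among them) had a mean of 3.395 to 3.69 in WT mice and of 2.86 to 3.48 in KO mice, so the tissue carried its defining markers in every mouse. The list of stromal cells and preadipocytes, 10 of 10 genes above background on all arrays, had a mean of 2.04 to 2.22 in WT and of 1.92 to 2.18 in KO mice. BAT was measured as a whole tissue, in which fewer cells of a type and less RNA per cell cannot be told apart.

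*Mest* encodes a membrane protein of the endoplasmic reticulum related to hydrolases. Its signal was -4.01, -3.95 and -4.32 in WT mice 1 to 3 and -3.34, -2.58 and -3.04 in KO mice 1 to 3. All KO mice lay above all WT mice, and KO 2 was the highest. The means were -4.09 ± 0.20 (SD, n = 3) in WT and -2.99 ± 0.38 (SD, n = 3) in KO. The log2 difference was 1.11 with a standard error of 0.22, or 2.15-fold. The signal was low, and with normexp background correction the difference was 0.71. The second *Mest* probe, matched to the same RefSeq transcript, had signals of -4.32, -4.08 and -4.16 in WT and of -4.11, -3.51 and -4.27 in KO mice. Here the groups overlapped, and the difference was 0.22 with a standard error of 0.23 from the fit over all probes. The probes of *Mest* thus differed by 0.88 in the KO-WT difference, and with their mean as the value of the gene the difference was 0.67. Which transcripts each probe detects is not known from the files.

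*Nnat* encodes neuronatin, a small proteolipid of the endoplasmic reticulum that acts on calcium storage and, in beta cells, on insulin secretion. It had 1 probe. WT mice 1, 2 and 3 had signals of -1.60, -2.76 and -2.47, and KO mice 1, 2 and 3 of -1.52, -1.48 and -0.30. All KO mice were again above all WT mice, but WT 1 and KO 1 were adjacent, and KO 3 stood above the other mice. The means were -2.28 ± 0.60 (SD, n = 3) and -1.10 ± 0.69 (SD, n = 3), and the difference was 1.18 with a standard error of 0.42, or 2.26-fold. Without KO 3 it was 0.78. *Mest* and *Nnat* were highest in different KO mice, and their Pearson's r over the 6 mice was 0.671. The list of nerve and Schwann cell genes, 6 of 6 above background on all arrays, had a mean of 0.16 to 0.70 in WT mice and of 0.04 to 0.24 in KO mice, so it was not highest where *Nnat* was.

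**Figure D1:**
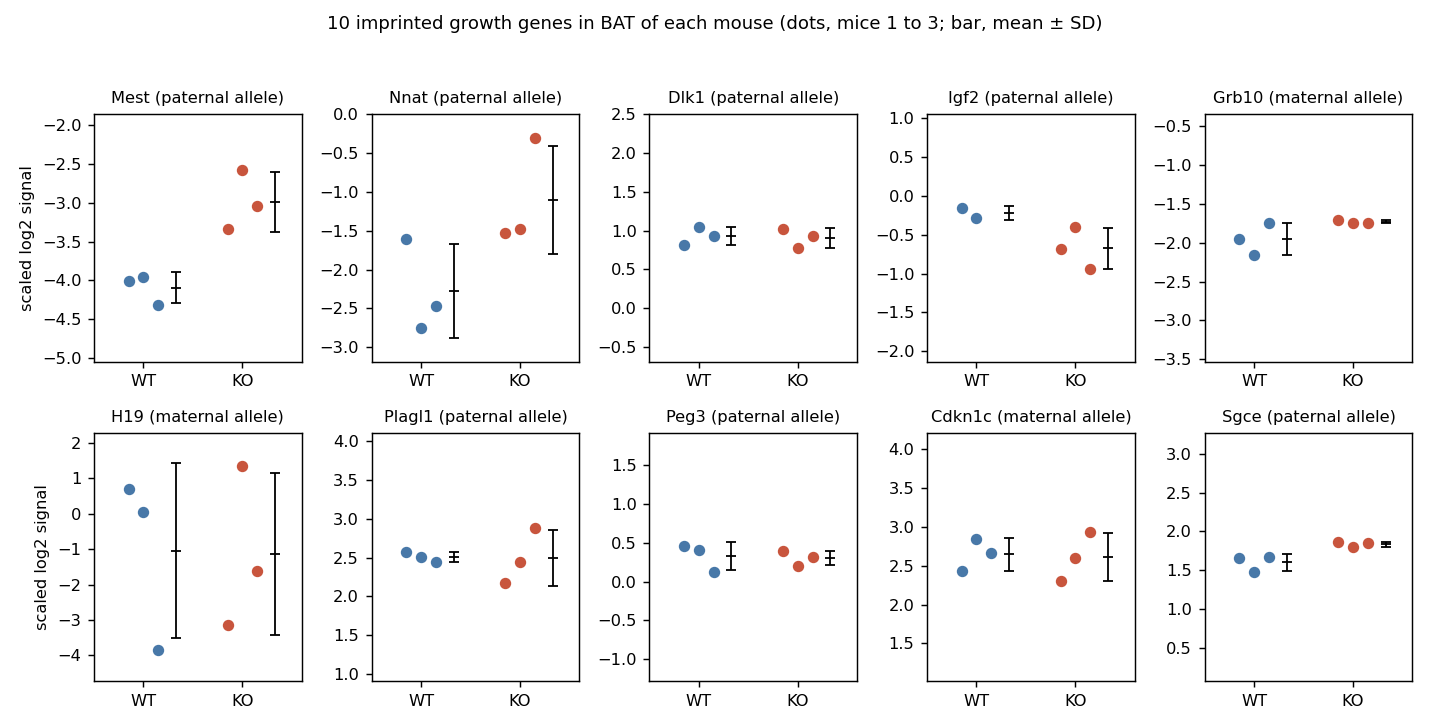
Scaled log2 signal (vertical axis, 0 is the 75th percentile of the array) of the 10 genes in each WT (blue) and KO (red) mouse, with the mean and SD of each group beside the points and mouse 1 to 3 from left to right. All panels span the same number of log2 units except that of *H19*, which spans more, and the parental copy named is background. The KO points lie above the WT points for *Mest*, *Nnat* and *Sgce*, while *H19* runs from -3.86 to 1.34 within 3 WT and 3 KO mice.

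The genes of insulin-like growth factor signaling among the members differed by less. *Igf2*, the growth factor itself, had unmarked signals of -0.16 and -0.29 in WT mice 1 and 2 and of -0.68, -0.41 and -0.94 in KO mice 1 to 3. All KO mice were below these WT mice, and the difference was -0.45 with a standard error of 0.20. The marked spot of WT 3 read -0.38, between both groups. The dimmer *Igf2* probe, above background on 5 arrays, differed by -0.04. Without WT 1 or without WT 2 the brighter probe no longer had enough unmarked values, and the gene's difference, taken from the dimmer probe, was -0.12 and 0.11. *Grb10*, an adaptor that dampens signaling of the insulin and IGF1 receptors, had signals of -1.95, -2.16 and -1.74 in WT and of -1.70, -1.74 and -1.74 in KO mice. The KO mice lay close together at the upper end of the WT range. Its difference was 0.22 with a standard error of 0.15, and 0.43 on its dimmer probe.

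*H19*, a long noncoding RNA that shares its imprinting control region with *Igf2*, varied within both groups more than any other member. WT mice 1, 2 and 3 had signals of 0.70, 0.04 and -3.86, and KO mice 1, 2 and 3 of -3.15, 1.34 and -1.62. Each group thus held both low and high mice, and the range over the 6 mice was 5.20, or 36.7-fold, larger than that of 99.3% of the genes with a value in every mouse. The group difference was -0.10 with a standard error of 1.48. It was -1.51 without WT 3, -1.35 without KO 2 and 0.90 without KO 1, so that no direction can be given.

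The skeletal muscle genes followed the same order of mice. Their list of 18 genes, 11 of them above background on all arrays, had a mean of 2.27, 1.42 and -4.76 in WT mice 1 to 3 and of -0.02, 3.32 and 1.34 in KO mice 1 to 3. *Ckm*, the muscle creatine kinase, ran from -7.98 in WT 3 to 3.48 in KO 2, and *Ttn*, the giant sarcomere protein titin, from -8.01 to 2.86 in the same mice. Neither was above background in WT 3. Across the 6 mice *H19* and the list mean had a Pearson's r of 0.868 (two-sided exact permutation p = 0.00139, 0.0139 after Benjamini-Hochberg adjustment over the 10 members) and a Spearman's rho of 1 (exact permutation p = 0.00278, 0.0278 adjusted). Without WT 3 and KO 2, the mice farthest from the median of the list, r was 0.932, and within the groups, after removal of each group mean, it was 0.943. The other 9 members had an absolute r of at most 0.627, that of *Mest*, and no adjusted exact permutation p under 0.805. In *Mest* the sign turned without the same mice, to an r of -0.559. The part of muscle in the *H19* values was not tested beyond this correlation.

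**Figure D2:**
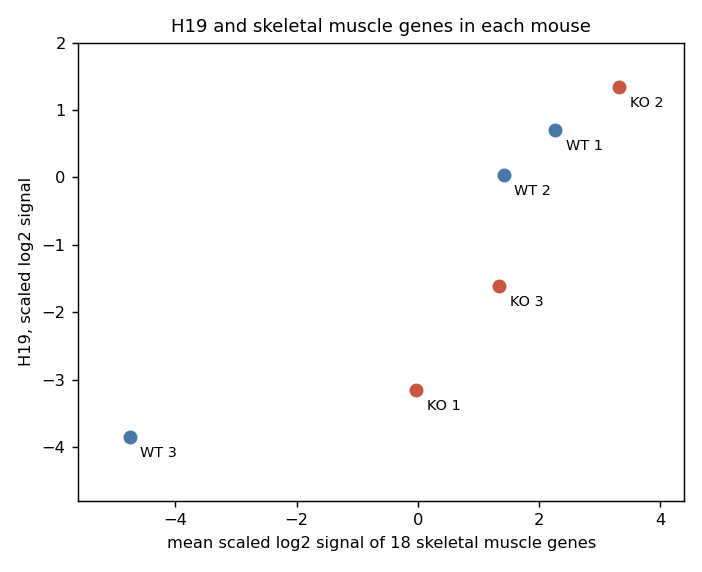
*H19* (vertical axis, scaled log2 signal) against the mean of 18 skeletal muscle genes (horizontal axis, scaled log2 signal) in the 3 WT (blue) and 3 KO (red) mice, 1 point per mouse. The order of the mice is the same on both axes, from WT 3 at the lower left to KO 2 at the upper right. On the muscle axis the WT mice run from -4.76 to 2.27 and the KO mice from -0.02 to 3.32.

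*Dlk1*, a membrane protein with EGF repeats that restrains adipocyte differentiation, differed little among mice. Its signals were 0.81, 1.05 and 0.93 in WT and 1.02, 0.77 and 0.93 in KO mice, with a difference of -0.02 and a standard error of 0.14. The groups overlapped throughout, and the range over mice of 0.27 was among the narrowest, larger than that of 3.17% of genes. Its dimmer probe differed by 0.10. *Peg3*, a zinc finger protein, was similarly even, at 0.46, 0.40 and 0.13 in WT and 0.39, 0.20 and 0.32 in KO mice. Its difference was -0.03 with a standard error of 0.15.

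*Plagl1* is a zinc finger transcription factor known to regulate other imprinted genes, *Igf2* and *H19* among them. The signals of its brighter probe were 2.57, 2.51 and 2.45 in WT and 2.17, 2.44 and 2.88 in KO mice. The KO mice spread to both sides of the WT mice, and the difference was -0.01 with a standard error of 0.20. On the dimmer probe it was 0.40 with a standard error of 0.18. There all KO mice (0.39 to 0.79) were above all WT mice (-0.01 to 0.34), so the probes of *Plagl1* differed in this. *Cdkn1c*, which encodes the cyclin-dependent kinase inhibitor p57, had signals of 2.43, 2.85 and 2.66 in WT and of 2.31, 2.60 and 2.93 in KO mice, with a difference of -0.04 and a standard error of 0.20. In both genes KO 1 was the lowest and KO 3 the highest of the 6 mice, and their Pearson's r over the mice was 0.767.

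*Sgce*, the epsilon subunit of the sarcoglycans that link the cytoskeleton to the matrix, had signals of 1.66, 1.48 and 1.67 in WT and of 1.86, 1.80 and 1.85 in KO mice. All KO mice were above all WT mice, by a small amount, with a difference of 0.23 and a standard error of 0.13. The dimmer probe differed by 0.49, and its signals had a Pearson's r of 0.888 with those of the brighter probe, the closest pair among the 6 members with 2 probes. On the dimmer probe the groups overlapped, with WT 1 at 0.40 above KO 3 at 0.36. *Sgce* and *Grb10* had the highest correlation between members, with an r of 0.895 over the 6 mice, which includes the group difference of both.

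In all, 6 of the 10 members were lower and 4 were higher in the KO mice. The 7 differences smaller than 0.25 ran from -0.10 to 0.23. Those of *Dlk1*, *H19*, *Plagl1*, *Peg3*, *Cdkn1c* and *Igf2* turned their sign under at least 1 alternative setting, so the split into lower and higher is not fixed. The median over the members was -0.02, beside -0.03 over all genes tested, and the median absolute difference over all genes was 0.25. On the probe that represents each gene, all KO mice were above all WT mice in 3 members, against 14.2% of the 11576 genes with 3 values per group. All were below in *Igf2* alone, which has 2 WT values and is outside that background, while 14.7% of those genes had all KO mice below. Of the 7 genes known as paternally expressed 3 were higher, and of the 3 known as maternally expressed 1. The members were picked on this contrast, so nothing is read from these shares.

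**Figure D3:**
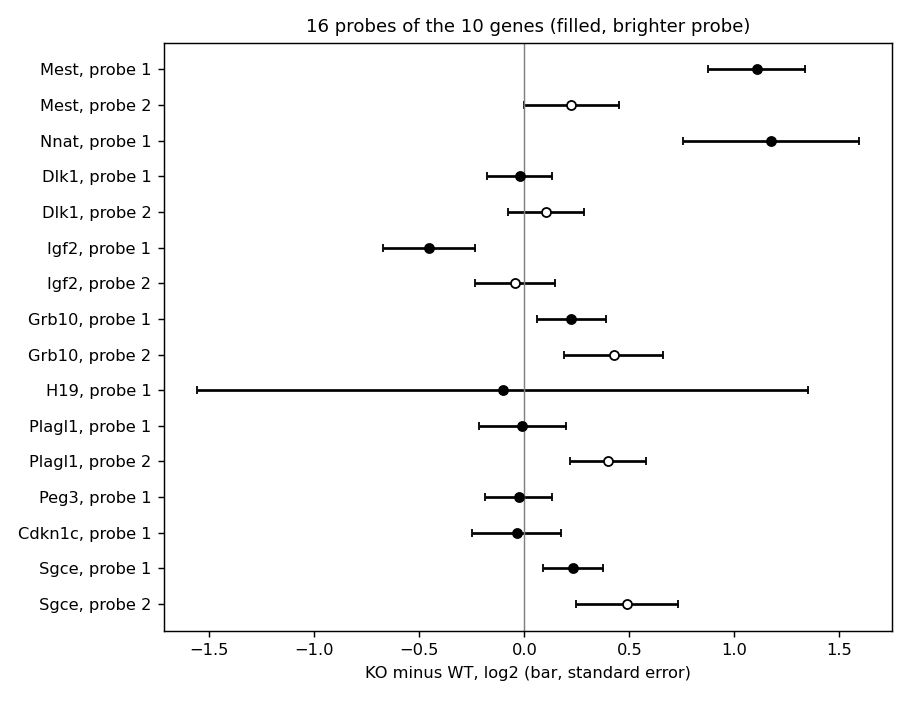
Difference of KO minus WT (horizontal axis, log2) with its standard error from the fit over all probes, for the 16 probes of the 10 genes. Filled points are the brighter probe of a gene and open points the dimmer one. The probes of *Mest* lie at 1.11 and 0.22, and those of *Igf2* at -0.45 and -0.04.

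The genes next to the members on the chromosome were compared to see whether differences extended along the imprinted domains. The nearest tested gene on each side gave 18 genes that are no members. Near *Mest*, *Cep41* differed by 0.01 with a standard error of 0.23 and the imprinted *Copg2* by -0.11 with a standard error of 0.13. *Nnat* lies within an intron of *Blcap*, and *Blcap* differed by 0.04 with a standard error of 0.19 and *Ctnnbl1*, on the other side, by 0.20 with a standard error of 0.15. None of these 4 passed an unadjusted p of 0.05. Of the 18 neighbours 1 did, *Begain* next to *Dlk1*, which was higher in KO mice by 0.40 with a standard error of 0.14 (adjusted p = 0.197, limma with Benjamini-Hochberg adjustment over all genes), while *Meg3*, on the other side of *Dlk1* and maternally expressed, differed by 0.00. At the same threshold 10% of all 14711 genes were higher and 8.82% were lower in KO mice.

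The other imprinted genes were taken from a list of 49 known in mice, of which 47 had a probe and 35 were tested. The list was chosen with earlier results of these data known. At an unadjusted p under 0.05, 4 of the 35 were higher (11.4%) and 1 was lower (2.86%), next to 10% and 8.82% of all genes, and their median difference was 0.00. None passed after adjustment with limma over all genes, which 0.184% of all genes did, and the methods' t-test also called 5 of the list at the unadjusted threshold. Without WT 2 the list had 2 calls and without KO 3 it had 3. The paternally expressed *Zdbf2* passed the threshold as higher, with signals of -6.62, -6.45 and -5.62 in WT and of -4.36, -4.87 and -5.28 in KO mice. It was above background in all 3 KO mice but in only 1 WT mouse, so it entered the test through the KO mice. The difference of 1.39 has little meaning as a size at this signal. With normexp background correction it was 0.31 and did not pass. The maternally expressed *Osbpl5*, a lipid transfer protein, rose by 0.69 with a standard error of 0.16 (adjusted p = 0.112), from 0.93 to 1.22 in WT mice to 1.52 to 1.92 in KO mice. Of its 3 probes the others differed by 0.06 and 0.58. *Kcnq1*, a potassium channel of the same cluster as *Osbpl5* and *Cdkn1c*, rose by 0.33 (standard error 0.13), a call that was lost in 11 of 17 alternatives. *Tfpi2*, a protease inhibitor, was above background in 1 WT and 2 KO mice, with overlapping groups. Its difference of 1.06 just passed, lost the call in 13 of the 15 alternatives in which it was tested, and was 0.29 with normexp. *Ppp1r9a*, the neighbour of the *Sgce* domain that encodes neurabin, fell by 0.46 with a standard error of 0.15. Its dimmer probe differed by -0.14, and the call was lost in 6 of 17 alternatives. The receptor that clears *Igf2*, *Igf2r*, differed by -0.22 with a standard error of 0.13 and did not pass the threshold.

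**Figure D4:**
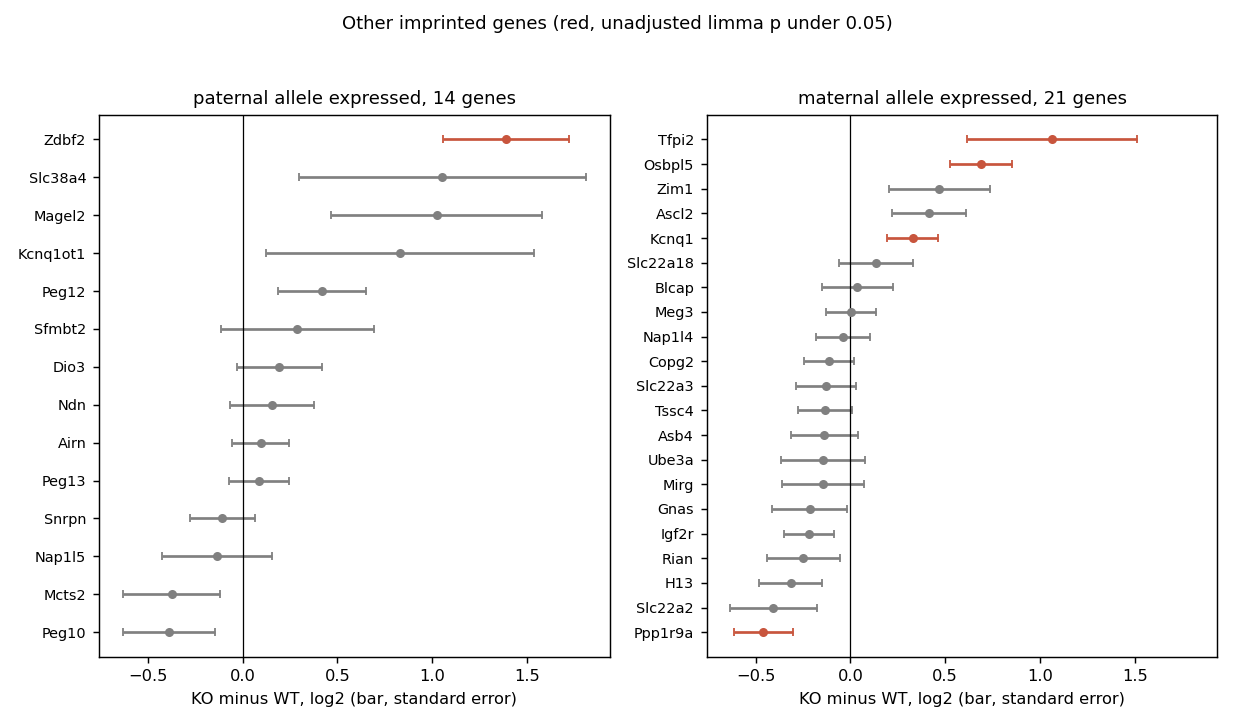
Difference of KO minus WT (horizontal axis, log2) with its standard error for 14 imprinted genes known as paternally and 21 known as maternally expressed. Red marks genes with an unadjusted limma p under 0.05, which are *Zdbf2* on the left and *Tfpi2*, *Osbpl5*, *Kcnq1* and *Ppp1r9a* on the right. The medians of the panels are 0.17 and -0.13.

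Genes that act with the members were compared in 5 lists, which were chosen with earlier results of these data known. Their shares are therefore set beside those of all genes as a description only. Over the 5 lists 50 of 57 genes were tested, with a median difference of 0.00. At an unadjusted p under 0.05, 10 were higher (20%) and 6 were lower (12%) in KO mice. None passed after adjustment with limma, and the lowest adjusted p was 0.0595. The methods' t-test called 12 at the unadjusted threshold. The count was 10 without WT 1, 9 without WT 2 and 10 without KO 2, in each case with fewer genes tested than with all 6 mice.

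In the Notch list, which goes with *Dlk1*, 5 of 14 tested genes rose (35.7%, next to 10% of all genes) and none fell. They were the ligand *Jag2*, the receptor *Notch4*, the DNA-binding factor *Rbpj* and the targets *Hes1* and *Sox9*. *Jag2* had signals of -2.08, -2.25 and -2.04 in WT and of -1.36, -1.56 and -1.53 in KO mice, a difference of 0.64 with a standard error of 0.14 (adjusted p = 0.0937 with limma). *Rbpj*, through which the receptors act on transcription, lay at -0.83, -0.73 and -0.85 in WT and at -0.37, -0.39 and -0.40 in KO mice. The groups did not overlap in any of the 5 genes, which were already picked by their p in the same contrast. All KO mice were above all WT mice in 14.2% of the 11576 genes with 3 values per group. *Hes1* had 2 unmarked values in each group. The dimmer probes of *Sox9*, *Rbpj* and *Notch4* differed by 0.30, 0.24 and 0.38. *Notch1*, *Notch2* and *Notch3* differed by 0.29, -0.12 and 0.00 and did not pass. With the mean of a gene's probes, 3 genes of the list rose, and without WT 3 and KO 1, the arrays with most marked spots, 2 did.

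In the list of insulin-like growth factor signaling, 16 genes were tested, and 2 rose (12.5%) and 2 fell (12.5%), shares close to the 10% and 8.82% of all genes. The binding protein *Igfbp2* rose by 0.90 with a standard error of 0.30 and *Igfals*, which stabilizes complexes of growth factor and binding protein, by 0.82 with a standard error of 0.30. Both signals were low, with WT means of -4.81 and -4.56. With normexp background correction the differences were 0.34, which did not pass, and 0.39. The calls were lost in 6 and 8 of 17 alternatives. *Irs2*, a substrate of the insulin receptor, fell by 0.63 with a standard error of 0.16 (adjusted p = 0.128 with limma), from 2.01, 1.98 and 1.93 in WT to 1.62, 1.12 and 1.28 in KO mice. *Igf2bp2*, which binds *Igf2* mRNA, fell by 0.49 with a standard error of 0.16, and its dimmer probe differed by -0.26. *Igf1*, *Igf1r* and *Insr*, the related growth factor and the receptors, differed by -0.20, 0.03 and 0.14 and did not pass.

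In the list of the G1 phase of the cell cycle, the stage that *Cdkn1c* restrains, 2 of 10 tested genes rose (20%) and 1 fell (10%), next to 10% and 8.82% of all genes. *Ccnd1*, which encodes cyclin D1, had signals of 1.08, 1.44 and 1.22 in WT mice and of 2.47 and 2.65 in KO mice 2 and 3, its spot in KO 1 being marked. The rise was 1.31 with a standard error of 0.18 (adjusted p = 0.0595 with limma). *Ccnd2* rose by 0.39 with a standard error of 0.15, whereas its dimmer probe differed by -0.04. The retinoblastoma gene *Rb1* fell by 0.42 with a standard error of 0.13, and its dimmer probe differed by 0.17.

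The partners of *Sgce* in the sarcoglycan complex were lower where they passed. *Sgcd* fell by 0.75 (standard error 0.20), *Sgcb* by 0.33 (standard error 0.12) and *Dag1*, the dystroglycan that the complex surrounds, by 0.51 (standard error 0.19), *Sgcd* and *Dag1* with 2 unmarked WT values each. These are 3 of 6 tested genes (50%, next to 8.82% of all genes). The count was 1 without KO 1 or without KO 2. Without WT 1 or WT 2 only 4 of the 6 genes could be tested, because *Sgcd* and *Dag1* then had a single unmarked WT value, and *Sgcb* differed by -0.37 and -0.29, passing in the former case only. *Sgca*, which is known from striated muscle, ranged from -4.55 to 0.14, lowest in WT 3 and highest in KO 2 like the muscle genes above, and did not pass.

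Genes whose mRNA is known to vary with *Mest* when fat depots enlarge formed the last of the lists. Of 4 tested, 1 rose (25%, next to 10% of all genes) and none fell. It was *Bmp3*, a bone morphogenetic protein, which rose by 1.14 with a standard error of 0.22 (adjusted p = 0.0817 with limma). With a WT mean of -3.76 the signal of *Bmp3* was low, and normexp background correction gave a difference of 0.57. Its signals were -3.69, -3.57 and -4.004 in WT and -2.93, -2.22 and -2.71 in KO mice, in the same order of mice as *Mest*. Its other 2 probes differed by 1.25 and 0.63. *Sfrp5*, *Npr3* and *Lep* differed by -0.31, 0.25 and 0.28 and did not pass.

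*Bmp3* was also the gene most like *Mest*. Among 9514 genes above background on all arrays without a marked spot, its Pearson's r with *Mest* over the 6 mice was 0.999, followed by *Bcl2l10* at 0.998 and *Igsf6* at 0.994. These 3 genes differed by 1.14, 1.33 and 0.78 between KO and WT. Of the 9514 genes, 333 had an r above 0.9 with *Mest*. All of these use the brighter *Mest* probe, whose r with the second *Mest* probe was only 0.642 over the 6 mice. For *Nnat* the closest were *Il6ra* at 0.988, *4921533I20Rik* at 0.988 and *Acot4* at 0.983, and 67 genes had an r above 0.9. They differed by 0.41, 0.59 and 0.59. These correlations are a description, since the points share the group difference.

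The genes that set or keep imprints were compared last, because the members depend on them. Of 15 listed 12 were tested, and 5 rose (41.7%, next to 10% of all genes) and none fell, with a median of 0.34. The list was chosen with earlier results of these data known, so this share is a description only. None passed after adjustment with limma, and the methods' t-test called 3 at the unadjusted threshold. *Zfp57*, the zinc finger protein that binds methylated imprinting control regions, rose by 1.13 with a standard error of 0.17 (adjusted p = 0.0595), from -5.28, -4.90 and -4.90 in WT to between -4.02 and -3.68 in KO mice. Its dimmer probe differed by 0.62. The DNA methyltransferases *Dnmt1*, which copies methylation at replication, and *Dnmt3b*, which sets it anew, rose by 0.52 (standard error 0.15) and 0.71 (standard error 0.19). In both, all KO mice were above all WT mice, as in 14.2% of the genes with 3 values per group. Both were already picked by their p in the same contrast. 1 of the 3 probes of *Dnmt3b*, the dimmest, differed by -0.04. *Uhrf1*, which recruits *Dnmt1*, rose by 0.58 with 2 unmarked values per group. With marked spots kept, the difference of *Uhrf1* was 0.29 and did not pass. *Dnmt3l*, a cofactor of the enzymes that set methylation, rose by 0.996 (standard error 0.39) with overlapping groups. *Trim28*, which silences through *Zfp57*, and *Dnmt3a* differed by -0.15 each and did not pass. The list had 3 calls without WT 1 or without KO 1.

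**Figure D5:**
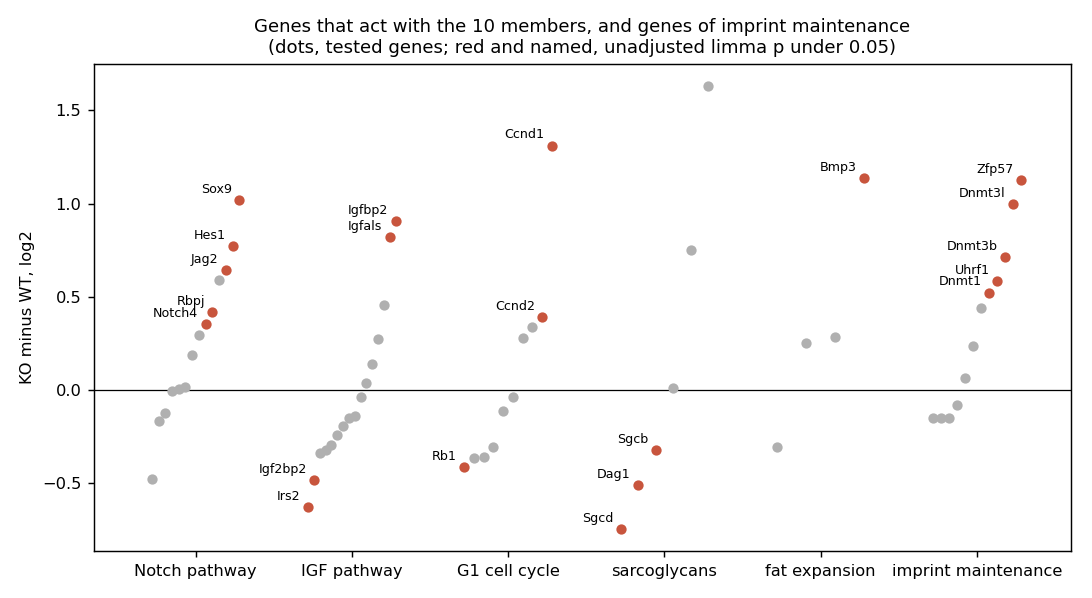
Difference of KO minus WT (vertical axis, log2) of the tested genes in the 5 lists of genes that act with the members and in the list of imprint maintenance, 1 point per gene, ordered by size within a list. Red and named genes had an unadjusted limma p under 0.05. The red points of the Notch and imprint maintenance lists are all above 0 and those of the sarcoglycan list all below it. The lists were chosen with earlier results of these data known.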

How the data were processed

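Spot intensity values of 6 one-colour arrays were deposited as background-subtracted output of Agilent Feature Extraction, without scaling between arrays. The headers name version 11.5.1.1 and the submitters' processing notes 10.7. The authors also deposited log2 values of 27497 probes, whose columns share nearly the same median, 8.82 to 8.85, and whose processing is not given in the sources used here.

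Here, each background-subtracted signal was scaled to the 75th percentile over non-control spots and log2-transformed. Probes needed to be well above background on at least 3 arrays, with 2 values per group that were not marked as outliers. For the cell type lists and the correlations with the muscle list, marked spots were kept and detection on any array was enough. RefSeq accessions (GRCm38.p6) tied 33767 of 56605 probes to a gene, and the brightest probe represented a gene. Groups followed the labels and were compared with limma 3.58.1 in R 4.3.3, two-sided, at 0.05 unadjusted, the threshold of the methods, and after Benjamini-Hochberg adjustment over all genes. SAM, which the methods name, was not run here. Of these steps, only the limma fit was tested on simulated data.

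The members and lists were chosen with earlier results of these data known. The genes named are the 10 members, of each list up to 4 in each direction with the smallest unadjusted p under 0.05, the nearest tested neighbours, and the 3 genes most like *Mest* and *Nnat*. The fifth genes of the Notch and imprint maintenance lists, second probes and genes named without passing were added after their values were seen. The number of arrays limits the precision, and the WT mice are called littermate controls with no litter given per mouse, so p-values measure the spread between these mice. As alternatives the arrays were quantile-normalized, scaled to the median over detected probes, or corrected by normexp with an offset of 50 on the median spot signal. Further ones were the deposited log2 values, no filter on dim probes or detection on 6 arrays, averaged probes, marked spots kept, the slide row as a block, the methods' t-test and leaving out each mouse. Leaving out WT 3 and KO 1 together was chosen after seeing the data.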

Additional observations from a re-analysis of the deposited data

How the results depend on the processing

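The difference of *Mest* was 0.71 with normexp background correction and 0.67 with the mean of the probes. Leaving out each mouse gave 0.90 to 1.28 for *Mest* and 0.78 to 1.51 for *Nnat*, and both were above 0 under all 16 alternatives run for them. Of the other 8 members, *Grb10* and *Sgce* were above 0 under all of theirs. With the slide row as a block, which compares the KO mice with WT 3 alone since WT 1 and WT 2 fill the other row, *H19* differed by 2.71, *Grb10* by 0.01 and *Peg3* by 0.18. *Igf2* differed by 0.55 with the mean of the probes, because WT 3 then had only the dimmer one, and could not be fitted with the block.

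The number of genes after adjustment, 27, was 4 with quantile normalization, 44 with normexp, 149 with the authors' values, 3 without a filter on dim probes, 233 with probes above background on all arrays, 15 with the mean of the probes, 76 with marked spots kept, 3 with the row block, 1 with the methods' t-test, 15 without WT 3 and KO 1, and 2 to 22 without each mouse. Genes called lower, 1297, were 298 with the row block, 662 without WT 3 and KO 1, and 726 to 1372 without each mouse. Genes called higher, 1476, were 893 with normexp and 777 with the row block. The share of lower genes among the calls, 46.8%, was 59.7% with normexp, 58% with the authors' values, 35% without a filter, 27.7% with the row block and 36.6% without WT 3 and KO 1. Without a filter on dim probes the median difference of all genes was 0.14.

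Calls in the list of other imprinted genes, 5, were 2 with normexp, 3 with probes above background on all arrays, 3 with the mean of the probes, 1 with the row block, and 2 to 6 without each mouse. Calls among the partner genes, 16, were 8 with the row block, 9 without WT 3 and KO 1, and 9 to 15 without each mouse. Calls among the genes of imprint maintenance, 5, were 3 with normexp, the authors' values, the row block, the methods' t-test, and without WT 3 and KO 1, and 3 to 5 without each mouse. Notch genes called higher, 5, were 3 with the mean of the probes and with the row block and 2 without WT 3 and KO 1. Sarcoglycan genes called lower, 3, were 1 with quantile normalization, without a filter and without WT 3 and KO 1, 0 with the authors' values and the row block, and 0 to 2 without each mouse. The causes were not tested. Among the 26 called list genes, none changed sign under any alternative, but calls were lost for 13 of the 22 tested with the row block, 12 of 24 without WT 3 and KO 1 and 10 of 26 with normexp, and for 0 to 9 under each of the others. *Kcnq1* and *Sgcb* lost theirs in 11 of 17 alternatives and *Dnmt3l* and *Notch4* in 10 of 17. *Zfp57* passed in all 17, at 0.46 with normexp and 1.25 at most. The correlation of *H19* with the muscle list was 0.807 to 0.937 over the alternatives. With marked spots left out and detection on at least 3 arrays, 15 muscle genes remained and the correlation was 0.868. No paired analysis was possible because the numbers of the mice link no WT mouse to a KO mouse.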
